A study of Mus musculus with 22 samples.

Results

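The comparison described here is the step from day 3 to day 7 after laser injury in the wild-type mouse eye, taken across all genes. Its members are the 8 wild-type libraries labelled day 3 or day 7, 4 of each, out of 22 libraries in the series. The tissue was retina and choroid dissected together from adult C57BL/6J mice with the wild-type genotype. A green laser had burned through the layers under the retina, which starts the growth of vessels from the choroid toward the retina (choroidal neovascularisation, CNV). Other wild-type groups are given beside the comparison, 4 controls without CNV and 4 libraries at day 14, and the 6 Rag2 libraries were not used. The age of the mice beyond adult is not stated. Whether a library is 1 animal or a pool of eyes is not stated, so that p-values measure the spread between these libraries, which may in part be technical. One control, replicate 4, carries a treatment tag that says laser, and its title says no CNV.

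A laser burn kills photoreceptors and pigment epithelium at the spot and breaks the membrane under them. Neighbouring Muller glia, the supporting glia of the retina, turn reactive: cytokines of the interleukin 6 family bind receptors that share the chain gp130 (Il6st), the kinases behind it switch on the factor Stat3, and Stat3 drives both glial injury genes and its own inhibitor, Socs3. Chemokines such as Ccl2 draw blood monocytes and neutrophils into the burn, macrophages clear debris, and new vessels and matrix follow. Day 3 and day 7 are commonly taken as times of early inflammation and of vessel growth in this model.

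No gene passed the test between the 2 days. With edgeR's quasi-likelihood test on all 16 wild-type libraries, 0 of 18657 genes had an adjusted p under 0.05 (0% called), and the lowest adjusted p was 0.114. At an unadjusted p under 0.05, a description and not a call, 573 genes (3.07%) were lower at day 7 and 571 (3.06%) were higher. All 4 day 7 libraries lay below all 4 day 3 libraries for 549 genes (2.94%) and above them for 523 (2.8%). Such genes are said below to have groups apart, and the counts of every list are to be read beside these shares. A second count model, DESeq2, called 63 of 18618 genes (0.338%), with 35 lower (0.188%) and 28 higher (0.15%). In the edgeR fit, day 3 differed from control at 2749 genes (14.7%), day 7 at 1962 (10.5%), and day 14 from day 7 at none (0%). These comparisons share libraries, and their values are set side by side only as descriptions. The median SE of a log2 fold change was 0.24, and the median 95% interval, unadjusted, reached 0.511 to each side. Many differences smaller than this were not detectable with 4 libraries a day. A call after adjustment over all genes asks for more: Ccl2, at -3.74, was not called. Below, a log2 fold change is day 7 minus day 3 with its SE from edgeR, levels are CPM (counts scaled to library size, with TMM factors), and 4 values in a row are replicates 1 to 4. An adjusted p is edgeR's unless DESeq2 is named. In a bulk sample, fewer cells of a type and less RNA per cell cannot be told apart.

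**Figure D1:**
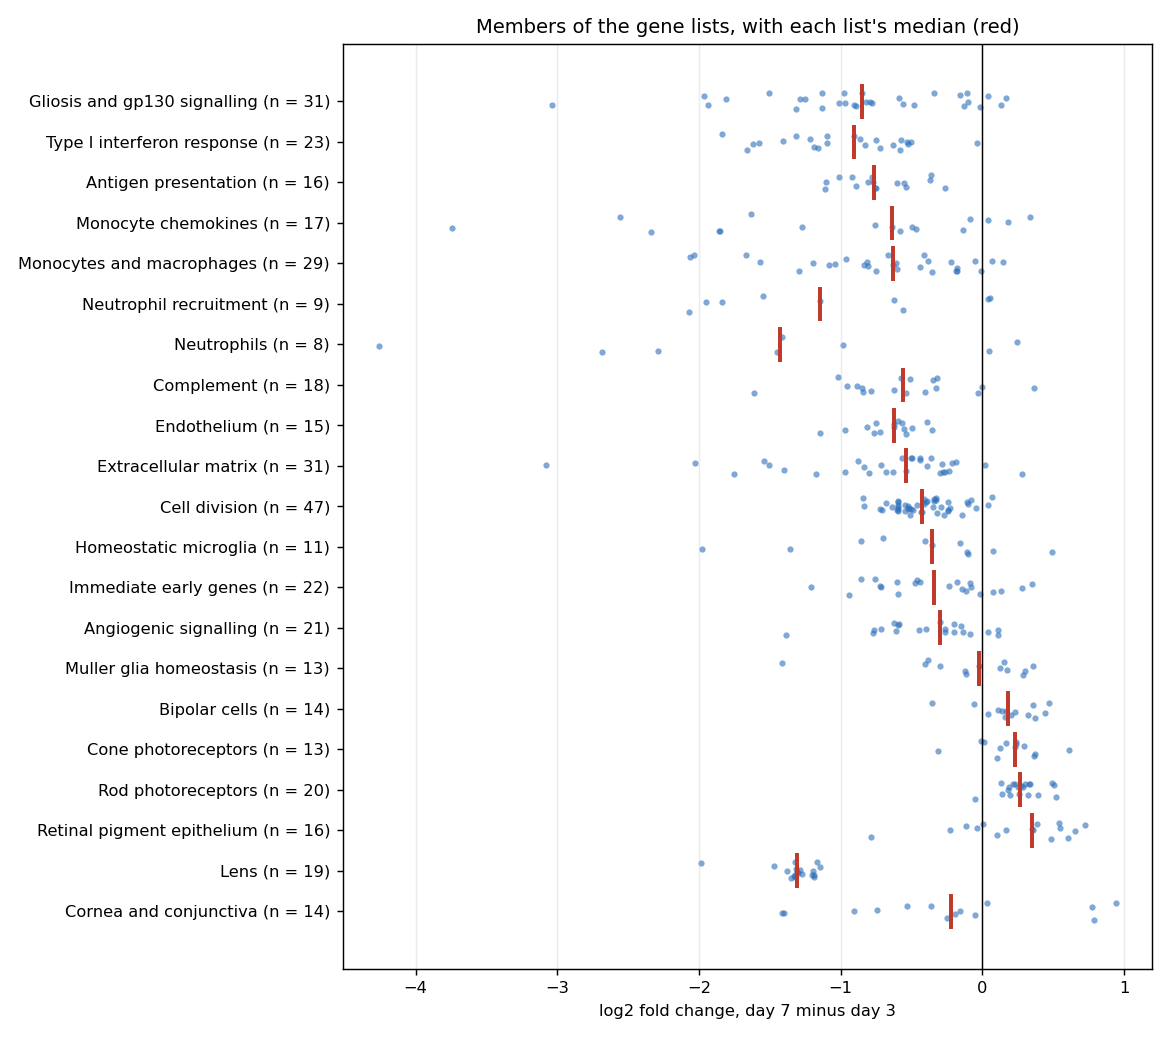
Each point is the log2 fold change (day 7 minus day 3) of 1 tested gene in its list, and the red line is the list's median. The gliosis, type I interferon, chemokine and macrophage lists sit mostly left of 0, with medians of -0.85, -0.91, -0.64 and -0.63, while the rod and pigment epithelium lists sit mostly right of it, with medians of 0.27 and 0.35.

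The 8 libraries held 15248747 to 16848254 counts each. They held transcripts of the lens, which is no part of the labelled tissue: 3.04% to 5.75% of counts at day 3, and 1.55%, 0.000982% (95% Wilson interval 0.0008396% to 0.001148%, counting error only), 1.74% and 4.19% at day 7. Cornea and conjunctiva genes took 3.46% (3.448% to 3.466%) of day 3 replicate 3, 2.83% (2.825% to 2.841%) of day 7 replicate 1 and 2.36% (2.355% to 2.37%) of day 7 replicate 2, and 0.496% to 1.42% of the other 5. The rod photoreceptor list took 3.33% (3.317% to 3.334%) of day 3 replicate 3 and 4.35% to 7.62% of the other 7. Day 3 replicate 3 and day 7 replicate 2 therefore stood apart, as did day 14 replicate 1, and values without these libraries are given where they moved most. Defining markers of rods, cones, bipolar cells, Muller glia, ganglion cells, pigment epithelium, endothelium and macrophages were found in every library of both days. Those of natural killer cells (Ncr1, Klrb1c, Prf1) and the neutrophil marker Ly6g were at or near 0 and did not pass the filter on low counts. The part of lens and surface tissue in the results was not tested beyond the fit that holds both as covariates.

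**Figure D2:**
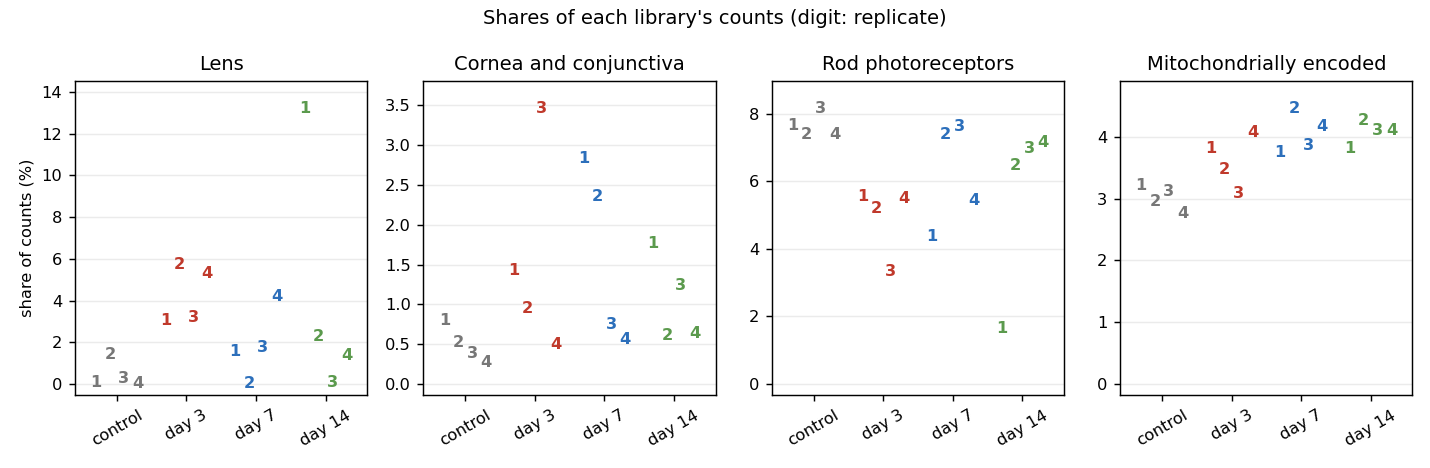
Share of each library's counts (percent, linear axis) in the lens, cornea and conjunctiva, rod photoreceptor and mitochondrially encoded genes, with each library drawn as its replicate number. Day 7 replicate 2 lies at almost 0 in the lens panel, and day 3 replicate 3 is the highest day 3 library in the cornea panel and the lowest in the rod panel.

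Genes of gliosis and of signalling through gp130 had estimates mostly below 0. Of 31 tested members 0 passed the test. At an unadjusted p under 0.05, 14 were lower and 0 higher, beside 3.07% and 3.06% of all genes, and in 11 the groups did not overlap, beside 2.94%. The list's median log2 fold change was -0.85, beside -0.01 over all genes, and 28 of 31 members were below 0. Against control, 20 members were called higher at day 3 and 5 at day 7, beside 6.97% and 3.62% of all genes. Without the 3 libraries that stood apart the median was -0.66 with 15 of 31 lower at an unadjusted p under 0.05. With covariates for lens and cornea it was -0.5 with 10. The list holds the crystallin Cryab, with 339451 counts in all at day 3 and 138776 at day 7. Cryaa, of the lens list, had 1289649 and 533468. How far lens tissue entered the gliosis counts was not tested beyond those covariates. DESeq2 called 5 members lower, beside 0.188% of all genes.

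Among the ligands of this pathway, Lif, the cytokine that injured retina uses to alert Muller glia, measured 2.51, 3.92, 3.97 and 5.83 CPM at day 3 and 2.97, 1.42, 1.66 and 1.35 CPM at day 7. Only day 7 replicate 1 lay within the day 3 range. It differed by -1.13 ± 0.35 on the log2 scale (adjusted p = 0.662). Clcf1, a related ligand, differed less, at -0.34 ± 0.25. The shared receptor chain Il6st stood at 135, 151, 125 and 168 CPM at day 3 and at 90.7, 90.1, 89.9 and 115 CPM at day 7, with no overlap and a log2 fold change of -0.59 ± 0.24 (adjusted p = 0.778). Its partner chains Osmr, at -0.56 ± 0.29, and Lifr, at -0.16 ± 0.12, overlapped between the days.

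Stat3, the factor that carries the signal into the nucleus, measured 183, 222, 201 and 227 CPM at day 3 and 124, 146, 102 and 115 CPM at day 7. The control mean was 81.4 ± 6.16 (SD, n = 4), so that every day 7 library lay between the control mean and the lowest day 3 library. The log2 fold change was -0.78 ± 0.20 (adjusted p = 0.429), and without the 3 libraries that stood apart edgeR called it lower, at -0.89 (adjusted p = 0.0218). Socs3, which Stat3 induces and which shuts the receptor off, went from 17.3, 18.7, 64.9 and 37.1 CPM to 11.4, 9.34, 8.17 and 10.4 CPM. The days did not overlap, and the day 7 libraries lay closer together than those of day 3. Its log2 fold change was -1.81 ± 0.44 (edgeR adjusted p = 0.429, DESeq2 adjusted p = 0.0269). Cebpd, a factor of acute inflammation that is also a Stat3 target, measured 86.1, 71.6, 110 and 109 CPM and then 27.4, 39.8, 34.7 and 55.9 CPM, a log2 fold change of -1.25 ± 0.32 (edgeR adjusted p = 0.429, DESeq2 adjusted p = 0.0466). Cebpd was still called higher than control at day 7 (log2 1.2, adjusted p = 0.0334), while Socs3 (log2 0.87) and Stat3 (log2 0.58) were not.

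The promoters of 2 list members held the palindrome that Stat factors bind, and they are shown because Socs3 is the pathway's own readout. Each run is the 250 bases before the RefSeq start (GRCm38.p6, the mm10 build), 5′ to 3′ on the gene's strand, with the letters TTCNNNGAA in capitals. The Socs3 window is chr11:117969367-117969616 on the minus strand, with the match at bases -154 to -146 from the start, and the Steap4 window is chr5:7960222-7960471 on the plus strand, with the match at bases -116 to -108.
Socs3: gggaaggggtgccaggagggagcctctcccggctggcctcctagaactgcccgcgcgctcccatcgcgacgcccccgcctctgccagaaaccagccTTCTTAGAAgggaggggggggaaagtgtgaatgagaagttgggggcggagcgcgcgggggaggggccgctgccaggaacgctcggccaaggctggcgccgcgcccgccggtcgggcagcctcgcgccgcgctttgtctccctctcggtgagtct
Steap4: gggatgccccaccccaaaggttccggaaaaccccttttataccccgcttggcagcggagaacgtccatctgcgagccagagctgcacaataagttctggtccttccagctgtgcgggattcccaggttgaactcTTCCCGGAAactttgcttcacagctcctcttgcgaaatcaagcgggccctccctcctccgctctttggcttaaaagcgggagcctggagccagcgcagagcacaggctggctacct
In the annotation deposited with the counts, Socs3 spans chr11:117966079-117970047, so that its whole window lies inside the gene. The motif reads the same on both strands. It was in 2 of the 27 list promoters found in the table (7.41%) and in 1940 of all 27025 promoters (7.18%). These windows were chosen after the values were seen, since no member passed the test.

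Of the genes that reactive glia and inflamed tissue make, Lcn2, a secreted carrier of iron-binding bacterial molecules, had the largest estimate in this list. It measured 81.6, 15.4, 180 and 90.9 CPM at day 3 and 17.6, 7.09, 7.22 and 13 CPM at day 7. Day 3 replicate 2 lay far below its group, just under day 7 replicate 1. The fitted level was 8.2-fold higher at day 3, with a log2 fold change of -3.04 ± 0.60 (edgeR adjusted p = 0.415, DESeq2 adjusted p = 0.000269), and without day 3 replicate 2 edgeR called it, at -3.39 (adjusted p = 0.0382). Timp1, an inhibitor of matrix proteases, measured 8.94, 5.01, 18.6 and 16.4 CPM and then 4.49, 2.77, 2.19 and 3.07 CPM, with no overlap (-1.96 ± 0.50, edgeR adjusted p = 0.429, DESeq2 adjusted p = 0.0365). Serpina3n, a protease inhibitor of reactive astrocytes, measured 147, 94.5, 371 and 318 CPM and then 65.8, 67.7, 29.4 and 80.4 CPM, also with no overlap (-1.93 ± 0.53, edgeR adjusted p = 0.527, DESeq2 adjusted p = 0.0466). Gfap, the filament protein of reactive glia, overlapped: 122, 122, 56.6 and 213 CPM at day 3 against 47.3, 92.5, 53.7 and 61.8 CPM at day 7. Its low day 3 value was that of replicate 3. Its log2 fold change of -1.01 ± 0.35 was not called (adjusted p = 0.731), but was without the 3 libraries that stood apart, at -1.49 (adjusted p = 0.0299). Steap4, a metalloreductase that inflammatory signals induce, stood at -1.50 ± 0.49 with overlapping groups (adjusted p = 0.724).

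**Figure D3:**
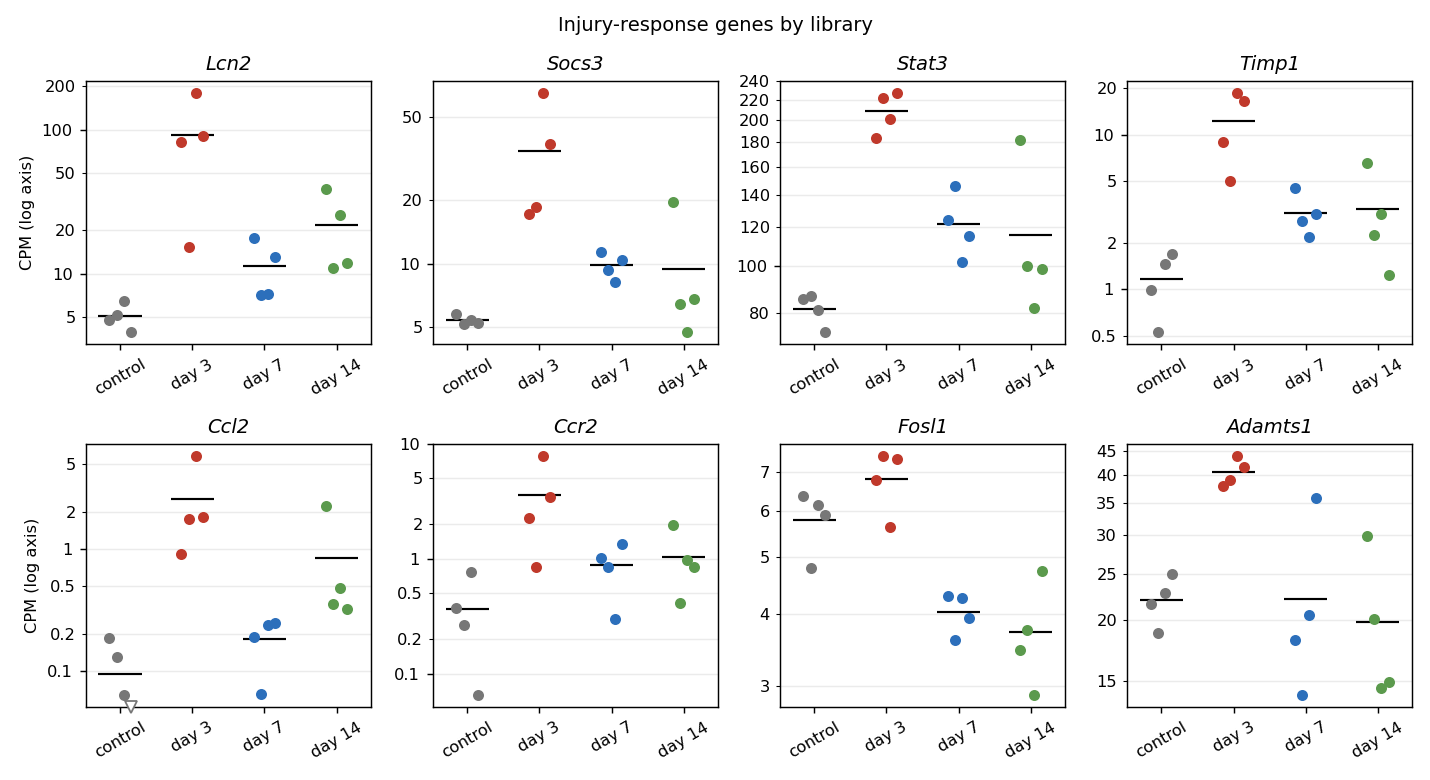
CPM (log axis) of 8 genes in each of the 16 wild-type libraries, with the group mean as a black line and an open triangle on the axis for a library at 0 (1 control, Ccl2). In Socs3, Stat3, Timp1, Ccl2, Fosl1 and Adamts1 every day 7 point lies below every day 3 point, and in Lcn2 and Ccr2 the lowest day 3 library falls among those of day 7.

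Of chemokines that draw monocytes, and the receptors that answer them, 14 of 17 tested genes had estimates below 0 and 3 above, and 0 passed the test. At an unadjusted p under 0.05, 8 were lower and 0 higher, beside 3.07% and 3.06% of all genes. The 8 were 6 of 12 ligands and 2 of 5 receptors. In 5 the day 7 libraries lay below those of day 3 and in 1 above, beside 2.94% and 2.8% of all genes. The median log2 fold change was -0.64. Without day 3 replicate 3 the number lower at an unadjusted p under 0.05 was 3 of 17, and the median was -0.58, and with covariates for lens and cornea the median was -0.41. Ccl2, the main ligand for inflammatory monocytes, measured 0.918, 1.75, 5.83 and 1.84 CPM at day 3 and 0.19, 0.0644, 0.237 and 0.246 CPM at day 7. The lowest day 3 library thus stood above the highest day 7 library, and day 7 was not called against the control mean of 0.0951 ± 0.0807 CPM (SD, n = 4). On the log2 scale it differed by -3.74 ± 0.78 (edgeR adjusted p = 0.415, DESeq2 adjusted p = 0.00522). Ccl12, a second ligand of the same receptor, stood between 2.02 and 2.45 CPM in the 4 day 3 libraries and between 0.533 and 0.709 CPM in the 4 at day 7, with no overlap and a log2 fold change of -1.86 ± 0.56 (adjusted p = 0.66). Ccl6 differed by -1.63 ± 0.54 without overlap. Cxcl10, an interferon-induced ligand for lymphocytes, differed by -1.86 ± 0.64 with overlap, since day 7 replicate 2 held 3.61 CPM. Among the receptors, Ccr2 measured 2.27, 0.845, 7.88 and 3.45 CPM and then 1.01, 0.838, 0.296 and 1.35 CPM (-2.04 ± 0.67, adjusted p = 0.724), and Ccr1 differed by -2.56 ± 0.79 without overlap (adjusted p = 0.701). Cx3cr1, the fractalkine receptor of microglia, differed by -0.10 ± 0.26, while both days were called above control (log2 1.42 and 1.32, adjusted p = 0.011 and 0.014). Its sign turned with covariates for lens and cornea (0.04) and without day 3 replicate 4 (0.1).

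Genes of monocytes and macrophages followed the same direction, and leaned more on a single library. Of 29 tested, 0 passed the test. At an unadjusted p under 0.05, 8 were lower and 0 higher, beside 3.07% and 3.06% of all genes. In 4 the day 7 libraries lay below those of day 3, beside 2.94%, and the median was -0.63 with 27 below 0. Against control 18 were called higher at day 3 and 6 at day 7, where the number over all genes also went from 1300 to 675. Leaving that library out, day 3 replicate 3, the number lower at an unadjusted p under 0.05 was 2, with a median of -0.37. Fcgr1, the high-affinity antibody receptor of inflammatory monocytes and macrophages, measured 3.43, 2.29, 7.22 and 4.4 CPM at day 3 and 1.2, 0.709, 1.72 and 1.78 CPM at day 7. The groups did not overlap, and the log2 fold change was -1.67 ± 0.44 (adjusted p = 0.473). Fcgr4, a related receptor, stood at -1.29 ± 0.58 and Cd163, the haemoglobin scavenger receptor, at -1.19 ± 0.51, both without overlap. Ms4a6d, a macrophage membrane protein, stood at -2.06 ± 0.61 with overlap. Cd68, a lysosomal protein that macrophages hold in quantity, overlapped as well (-0.82 ± 0.38, adjusted p = 0.815). The 11 genes of resting microglia had a median of -0.36, with 1 lower at an unadjusted p under 0.05, and a median of -0.19 without the 3 libraries that stood apart.

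Neutrophil genes rested on 1 library. Of 19 listed genes 8 passed the filter on low counts, with a median of -1.43. Of the 8, 3 were lower at an unadjusted p under 0.05 and none had groups apart, beside 3.07% and 2.94% of all genes. Leaving out day 3 replicate 3, the median was -0.35 and 0 were lower at that level. S100a8, a granule protein of neutrophils, measured 1.22, 0.0604, 24.7 and 0.892 CPM at day 3 and 0.759, 0.258, 0.118 and 0.246 CPM at day 7. Its partner S100a9 held 66.2 CPM in the same day 3 library, 0.654 to 3.61 CPM in the others of day 3 and 0.296 to 9.55 CPM at day 7. Its log2 fold change of -2.69 ± 1.40 turned to 0.74 without that library and to 1.05 without all 3 that stood apart. Csf3r, the receptor for the growth factor that makes neutrophils, held 20.2 CPM there and 3.02 to 4.53 CPM in the other 3 (-1.41 ± 0.54, adjusted p = 0.769). Genes that recruit neutrophils were lower at an unadjusted p under 0.05 in 5 of 9 cases, beside 3.07% of all genes. Without that library the count was 2 of 9. Of these recruitment genes C5ar1, the receptor for complement fragment C5a, had groups apart, with 1.59, 1.39, 3.91 and 3.39 CPM before 1.08, 0.902, 0.533 and 0.982 CPM (-1.55 ± 0.46, adjusted p = 0.65). Vcam1, an adhesion molecule that holds leukocytes to vessel walls, stood at -0.63 ± 0.23 with overlap.

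For genes induced by type I interferon, all 23 estimates lay below 0, with a median of -0.91. At an unadjusted p under 0.05, 7 of 23 were lower and 0 higher, beside 3.07% and 3.06% of all genes. In 4 the day 7 libraries lay below those of day 3, beside 2.94%. Scaling by library totals left 22 of 23 below 0. None passed the test. Irf9, part of the factor that interferon receptors activate, measured 58.7, 63.8, 105 and 60.4 CPM at day 3 and 56.7, 46.6, 33.7 and 37.7 CPM at day 7 (-0.72 ± 0.28, adjusted p = 0.769). Mx1, an antiviral GTPase, had groups apart as well, and day 3 replicate 3 held 8.87 CPM of it beside 2.85 to 3.14 CPM in the other 3 (-1.84 ± 0.74). Ifit2, an antiviral RNA-binding protein, overlapped (-0.58 ± 0.19). Without day 3 replicate 3 the list's median was -0.4 with 2 of 23 lower at an unadjusted p under 0.05, and with covariates for lens and cornea it was -0.68 with 17. All 16 antigen presentation genes were below 0 too, with a median of -0.77. Of them 2 were lower at an unadjusted p under 0.05 and none had groups apart, beside 3.07% and 2.94% of all genes. Their median was -0.33 without day 3 replicate 3 and -0.23 without the 3 libraries that stood apart. Among them B2m, the light chain of class I molecules, stood at 271, 185, 636 and 264 CPM and then at 212, 174, 119 and 167 CPM (-1.01 ± 0.46, adjusted p = 0.805).

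Of 22 immediate early genes, which cells switch on within minutes of a stimulus, 18 had estimates below 0 and 4 above, and 0 passed the test. At an unadjusted p under 0.05, 5 were lower and 0 higher, beside 3.07% and 3.06% of all genes. In 5 the day 7 libraries lay below those of day 3, beside 2.94%. The median was -0.34, or -0.08 without day 3 replicate 3. Fosl1, a subunit of the AP-1 factor, measured 6.8, 7.48, 5.63 and 7.37 CPM at day 3 and 4.3, 3.61, 4.26 and 3.93 CPM at day 7. The groups did not overlap, and day 7 lay below the control mean of 5.81 ± 0.706 (SD, n = 4), a difference from control that was not called (adjusted p = 0.0655). The log2 fold change between the days was -0.76 ± 0.18 (edgeR adjusted p = 0.429, DESeq2 adjusted p = 0.0117). Fosb, another subunit, measured 13.8, 10.4, 8.87 and 11.2 CPM and then 7.21, 7.28, 5.51 and 6.88 CPM (-0.72 ± 0.19, edgeR adjusted p = 0.473, DESeq2 adjusted p = 0.0435), and both days were called above control. Jun (-0.60 ± 0.18), the orphan receptor Nr4a3 (-1.21 ± 0.38) and the phosphatase Dusp1 (-0.60 ± 0.21), which turns off MAP kinases, also had groups apart. Egr1, a zinc finger factor, pointed up at 0.35 ± 0.23 (adjusted p = 0.877). It was called above control on day 3 (log2 0.77, adjusted p = 0.0417) and on day 7 (log2 1.12, adjusted p = 0.0161).

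Of 14 genes of photoreceptor stress and endothelin signalling, 0 passed the test. At an unadjusted p under 0.05, 2 were lower, beside 3.07% of all genes. In 2 the day 7 libraries lay below those of day 3, beside 2.94%. The median of -0.45 was -0.08, with 9 of 14 below 0, with covariates for lens and cornea, and -0.25 without the 3 libraries that stood apart. Edn2, the endothelin that such cells release, stood at 125, 143, 62.9 and 179 CPM at day 3 and at 44.7, 111, 72.3 and 109 CPM at day 7, with overlapping groups (-0.60 ± 0.31, adjusted p = 0.843). Both days were called above the control mean of 5.02 ± 0.828 CPM (SD, n = 4). Its receptor Ednrb, found on glia, differed by -0.46 ± 0.20. Fgf2, a growth factor that protects photoreceptors, differed by -0.77 ± 0.29 (adjusted p = 0.742) with overlap, and was called above control on both days. Atf3, which injured neurons switch on, belongs to another list, of 15 neuronal injury genes. Of those 15, 2 were lower at an unadjusted p under 0.05, beside 3.07% of all genes, and the median was -0.29. Atf3 stood at 27.6, 38, 15.2 and 37.6 CPM and then at 6.89, 19.7, 16.2 and 23 CPM (-0.85 ± 0.33). Day 3 replicate 3 was the lowest of its group, as for Edn2, Fgf2 and Gfap.

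Among matrix genes 5 of 31 were lower at an unadjusted p under 0.05 and 0 higher, beside 3.07% and 3.06% of all genes. In 7 the day 7 libraries lay below those of day 3, beside 2.94%, and the median was -0.54. With covariates for lens and cornea the median was -0.19, with 24 of 31 below 0, 4 lower and 1 higher, and without the 3 libraries that stood apart 9 were lower and 1 higher at that level. Cross-linkers, proteases and their inhibitors gave 4 of those 5. Tnc, a matrix glycoprotein of wounds, measured 20, 16.6, 24.5 and 20.4 CPM at day 3 and 13.5, 11.3, 13 and 14.8 CPM at day 7. Day 3 lay at the control mean of 19.5 ± 1.75 (SD, n = 4) and day 7 was called below control (log2 -0.56, adjusted p = 0.0254), while the step between the days was -0.63 ± 0.14 (edgeR adjusted p = 0.429, DESeq2 adjusted p = 0.0109). Adamts1, a matrix protease that restrains vessel growth, stood at 37.9 to 43.9 CPM in the 4 day 3 libraries and at 18.2, 14, 20.5 and 35.8 CPM at day 7. All day 7 values were lower, and day 7 replicate 4 came within reach of day 3 (-0.88 ± 0.26, adjusted p = 0.659). Lox, a collagen cross-linker, measured 11.1, 6.1, 14.4 and 18.7 CPM and then 6.83, 2.32, 2.72 and 7.12 CPM (-1.40 ± 0.45, adjusted p = 0.724), and was called above control on both days. Mmp3, a matrix protease, ranged from 2.53 to 77 CPM at day 3 and from 1.48 to 5.63 CPM at day 7 (-3.08 ± 0.90, edgeR adjusted p = 0.606, DESeq2 adjusted p = 0.0462).

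All 15 endothelial genes had estimates below 0, with a median of -0.62. At an unadjusted p under 0.05, 1 was lower, beside 3.07% of all genes. That gene was Cdh5, the cadherin of endothelial junctions, with 14.1, 11.6, 10.9 and 15.5 CPM at day 3 and 9.74, 4.06, 3.37 and 6.38 CPM at day 7 (-1.15 ± 0.48, adjusted p = 0.791). Its groups did not overlap, and the day 7 mean was close to the control mean of 5.83 ± 1.59 (SD, n = 4). This count leaned on single libraries: it was 11 of 15, with a median of -1.11, without day 7 replicate 1, 3 of 15 without day 3 replicate 3, and 0 without day 7 replicate 2 or 3. Of 21 angiogenic genes 4 were lower at an unadjusted p under 0.05, beside 3.07% of all genes. They were 1 of 11 ligands and 3 of 10 receptors. The median of this list was -0.3, and with covariates for lens and cornea 1 gene was lower at that level. Aplnr, the apelin receptor of sprouting endothelium, measured 1.9, 1.81, 2.32 and 5.53 CPM and then 1.64, 0.644, 0.533 and 1.6 CPM (-1.38 ± 0.48, adjusted p = 0.731). Both days were called above the control mean of 0.144 ± 0.0313 CPM (SD, n = 4). Its ligand Apln stood at -0.72 ± 0.33 and the receptor Notch1 at -0.77 ± 0.29. Vegfa, the main driver of CNV, showed no difference beyond the spread, with 189, 182, 142 and 174 CPM against 139, 139, 171 and 151 CPM (-0.20 ± 0.16, adjusted p = 0.888), nor did its receptor Kdr (-0.30 ± 0.23, adjusted p = 0.883), which neurons of the retina express too.

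Cell division genes depended on 1 library. Of 47 tested, 45 were below 0 with a median of -0.43, and none was lower even at an unadjusted p under 0.05. Mki67, a marker of dividing cells, measured 18.4, 16.3, 74.2 and 12.4 CPM at day 3 and 34.7, 21.3, 9.24 and 10.4 CPM at day 7. Without day 3 replicate 3, 3 of 47 were below 0, the median was 0.28, and Mki67 turned from -0.68 to 0.27. Aurkb, a mitotic kinase, turned from -0.84 to 0.13. Cdt1, which licenses DNA replication, held 26.3 CPM in that library and 9.51 to 11 CPM in the other 3 (-0.60 ± 0.33).

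Genes of retinal neurons pointed the other way by small amounts. Of 20 rod genes 19 had estimates above 0, with a median of 0.27, and 0 were higher at an unadjusted p under 0.05. Sag, the rod arrestin, stood at 3970, 3440, 2530 and 3780 CPM at day 3 and at 3080, 6370, 5860 and 4020 CPM at day 7, with overlapping groups (0.50 ± 0.31, adjusted p = 0.872). With covariates for lens and cornea the rod median was -0.11 and without the 3 libraries that stood apart the rod median was 0.04. Cone genes had a median of 0.23, or -0.06 with those covariates. Arr3, the cone arrestin, had groups apart, with 262, 321, 201 and 286 CPM before 378, 414, 464 and 379 CPM, close to the control mean of 416 ± 15.2 (SD, n = 4). Its log2 fold change was 0.61 ± 0.30 (adjusted p = 0.828). Ccdc136, also on the cone list, had groups apart by a narrow gap (0.23 ± 0.17). Bipolar genes had a median of 0.18.

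In the pigment epithelium, 3 of 16 genes were higher at an unadjusted p under 0.05 (beside 3.06% of all genes), 0 lower, and the median was 0.35. The count was 8 of 16 without day 7 replicate 4, and 0 without the 3 libraries that stood apart. Rpe65, the isomerase of the visual cycle, measured 53, 67.7, 99 and 104 CPM at day 3 and 146, 151, 171 and 66.6 CPM at day 7. All day 7 libraries but replicate 4 lay above all of day 3, with a log2 fold change of 0.72 ± 0.31 (adjusted p = 0.795). The same library was the low one for Ttr, the thyroxine and retinol carrier, at 646 CPM beside 1370 to 1490 CPM (0.60 ± 0.23, adjusted p = 0.769), for Rdh5, a retinol dehydrogenase, at 85.2 beside 181 to 235 CPM (0.54 ± 0.23), and for Lrat, which esterifies retinol, at 28.7 beside 56.3 to 59.9 CPM (0.55 ± 0.33). Rpe65 was called below control at day 3 (log2 -1.45, adjusted p = 0.0164) and not at day 7 (log2 -0.73, adjusted p = 0.124), and Lrat on both days.

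Muller glia genes of normal function had a median of -0.02, which turned positive in 11 of 17 alternatives. Glul, the glutamine synthetase of these cells, stood at 0.29 ± 0.15 (adjusted p = 0.843). Crym, a thyroid hormone binding protein, differed most, with 88.6, 116, 86.7 and 294 CPM at day 3 and 50.8, 58.8, 51.3 and 58.4 CPM at day 7. The groups did not overlap, and day 3 replicate 4 lay far above the rest (-1.42 ± 0.32, edgeR adjusted p = 0.429, DESeq2 adjusted p = 0.0192). Natural killer cells, the subject of the series, could hardly be followed here: 4 of 22 listed genes passed the filter on low counts, and 0 differed even at an unadjusted p under 0.05. Ccl5, a chemokine of T and natural killer cells, stood at -0.96 ± 0.57 (adjusted p = 0.857) and the factor Eomes at 0.45 ± 0.48 (adjusted p = 0.906). Retinal ganglion cells also express Eomes, and its level was highest in control, at 6.35 ± 1.11 CPM (SD, n = 4), so that it may not report natural killer cells here.

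**Figure D4:**
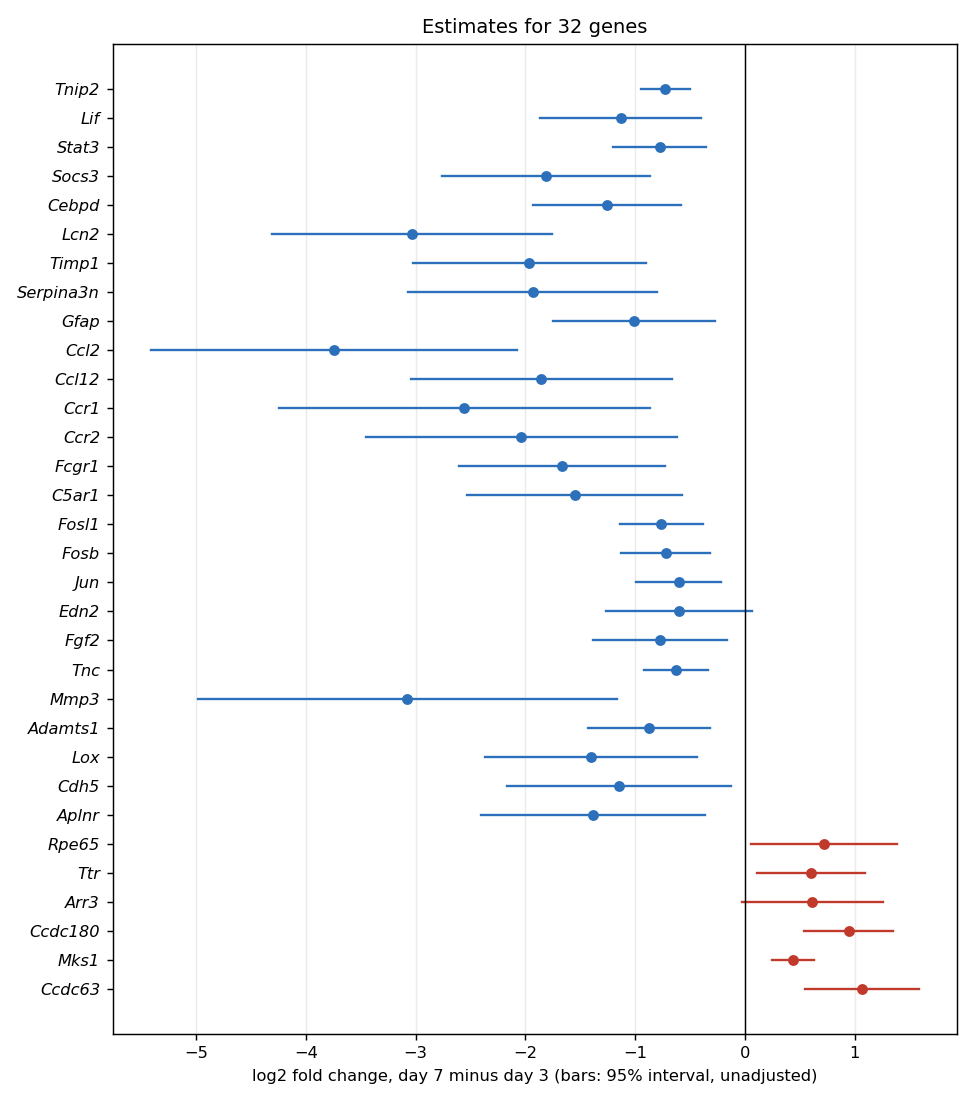
Log2 fold change (day 7 minus day 3) of 32 genes with the unadjusted 95% interval of each from edgeR, blue where the estimate is below 0 and red where it is above. The intervals are wide for scarce genes such as Ccl2 and Mmp3 and narrow for Tnip2 and Mks1, and none of the genes passed adjustment over 18657 genes.

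Across all genes, the 12 with the smallest p in each direction were taken by rule, as values only. The smallest of all belonged to Tnip2 (ENSMUSG00000059866, chr5:34496087-34513991 on mm10), an inhibitor of NF-kappaB signalling. It stood at 53, 64.6, 48.6 and 63.5 CPM at day 3 and at 29.9, 36.3, 37.6 and 35.2 CPM at day 7, with a control mean of 39.2 ± 1.25 (SD, n = 4). Every day 3 library was above every day 7 and control library, and the step between the days was 1.65-fold, a log2 fold change of -0.72 ± 0.11 (95% interval -0.95 to -0.50, edgeR adjusted p = 0.114, DESeq2 adjusted p = 1.07e-06). Without day 3 replicate 3 edgeR called it (-0.80, adjusted p = 0.0398). E2f6, a repressor of the E2F family, showed a like course, with 45.2 to 52.3 CPM at day 3, 30.9 to 38.4 CPM at day 7 and 32.3 ± 1.81 in control (SD, n = 4; -0.55 ± 0.12, DESeq2 adjusted p = 0.00566). Marveld3, a tight junction protein, stood at -0.67 ± 0.15 and Mrps25, a mitochondrial ribosomal protein, at -0.59 ± 0.13, neither called against control at day 7. Called below control at day 7 were Lrrc8c (-0.89 ± 0.18), a subunit of volume-regulated anion channels, Nfya (-0.39 ± 0.08), a subunit of the factor that binds CCAAT boxes, and Sfpq (-0.46 ± 0.10), an RNA-binding protein of the nucleus. DESeq2 called all 7 of these genes lower. The others of the 12 were Lcn2, Ccl2, Tnc and Crym, given above, and Sdf2l1.

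On the higher side, H1foo, the linker histone of oocytes, had the smallest p. It measured 0.122, 0.845, 0.132 and 0.416 CPM at day 3 and 2.66, 3.54, 1.84 and 2.46 CPM at day 7, and control held 0.635 ± 0.303 CPM (SD, n = 4). The log2 fold change was 2.75 ± 0.48 (edgeR adjusted p = 0.384, DESeq2 adjusted p = 1.44e-05), and without day 3 replicate 2 edgeR called it (3.49, adjusted p = 0.0382). H2al2a, a histone variant of the testis, measured 0.306, 0.302, 0.0662 and 0.654 CPM and then 2.66, 1.48, 1.42 and 2.03 CPM (2.47 ± 0.52). Both genes were scarce in every library. Several of the 12 belong to cilia, the antenna on which the photoreceptor outer segment is built and the beating structure of other epithelia. Mks1, of the transition zone at the base of the cilium, stood at 27.2, 29, 25.8 and 27.7 CPM and then at 37.3, 38.9, 35 and 37.6 CPM (0.44 ± 0.09, edgeR adjusted p = 0.415, DESeq2 adjusted p = 0.00294). Ccdc180 measured 5.94, 5.91, 3.51 and 4.76 CPM and then 9.36, 11.1, 9.71 and 8.59 CPM, with control at 8.8 ± 0.873 (SD, n = 4; 0.95 ± 0.19). Ccdc63, a protein of dynein arm assembly, measured 4.53, 4.71, 4.04 and 4.82 CPM and then 8.16, 9.99, 10.4 and 9.45 CPM (1.07 ± 0.24, DESeq2 adjusted p = 0.00768), and was called by edgeR without the 3 libraries that stood apart (1, adjusted p = 0.0299). Casc1 (0.78 ± 0.18) and Wdr93 (1.12 ± 0.24) had groups apart too. The remaining 5 were Mc1r (1.22 ± 0.28), the melanocortin receptor of pigment cells, Arsg (0.74 ± 0.18), a lysosomal sulfatase, Klkb1 (0.97 ± 0.23), plasma kallikrein, Pla2g2c (0.92 ± 0.22), a phospholipase, and Zc3h6 (0.87 ± 0.21), a zinc finger protein. The groups of all 12 did not overlap. H1foo, H2al2a, Klkb1 and Pla2g2c were called above control at day 7 (adjusted p = 0.0206, 0.043, 0.0206 and 0.0177) and not at day 3. Ccdc180, Arsg and Zc3h6 were called below control at day 3 and not at day 7. The others of the 12 were called against control on neither day. Of the 96 genes named here or in the closing part, 23 overlap another tested gene, 20 of them on the opposite strand, among them Stat3, Cebpd, Timp1, Gfap, Cxcl10, Jun, Fgf2, Notch1, Mrps25, Ccdc63, Casc1, Arsg and Pla2g2c, and the strand setting of the counting is not given in the sources used here.

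**Figure D5:**
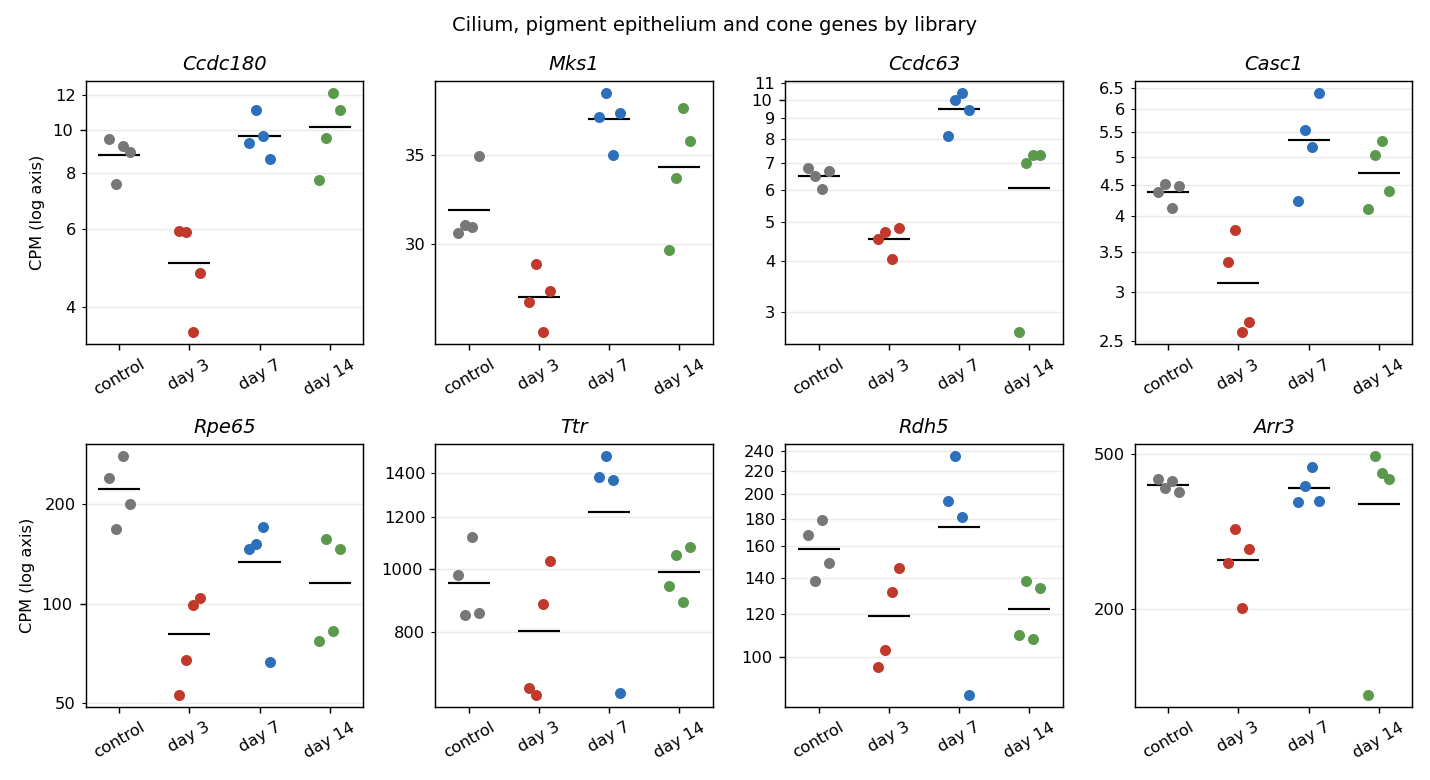
CPM (log axis) of 4 cilium genes, 3 pigment epithelium genes and the cone gene Arr3 in each of the 16 wild-type libraries, with the group mean as a black line. Every day 7 point lies above every day 3 point for the cilium genes and Arr3. Day 7 replicate 4 falls among the day 3 libraries for Rpe65 and Ttr, and below all of them for Rdh5.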

How the data were processed

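Total RNA of the retina and choroid, extracted with TRIzol, was sequenced, per the labels' protocols. The authors deposited raw counts for 54532 genes, counted with featureCounts 1.5.0-p3 on mm10, per the submitters' processing notes. For the aligner, annotation release and strand setting, nothing is given in the sources used here. The deposited FPKM values and the Rag2 table were not used.

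The counts were fitted in edgeR 4.0.16 (limma 3.58.1, R 4.3.3) with group means over all 16 wild-type libraries, after filterByExpr (minimum count 10, minimum total 15) and TMM scaling, with robust quasi-likelihood tests and Benjamini-Hochberg adjustment over 18657 genes, called at adjusted p under 0.05. The fit was tested on simulated counts. DESeq2 1.42.0, limma voom, other scalings and filters, covariates, a replicate block and left-out libraries were the alternatives. No set test was run.

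Lists (39, with 665 distinct symbols, of which 663 matched and 593 were tested), named genes and comparison were chosen with earlier results of these data known. The text picks from the 12 smallest p in each direction with a mean of at least 1 CPM, predicted genes (Gm with digits, Rik) left out. It also picks from the 3 smallest p of each list, and ligands, receptors and signal carriers of the signalling lists. Remaining list members named, and 2 further gene groups, were chosen after their values were seen. Promoter sequences are from RefSeq (GRCm38.p6). Of the 96 named genes 76 had one. A few genes are not reported here.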

Additional observations from a re-analysis of the deposited data

Results flagged for a closer look

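In groups of 4 libraries, a library whose gap to its nearest neighbour exceeded Dixon's 95% critical share of the group's range was noted, for 96 genes and 6 shares of counts on each day. Of 204 such groups of values 24 held one, and 12 of the 24 were day 3 replicate 3. The 5% level holds for independent, normally spread values. Here genes that move together were each counted, so it is no reference for this number.

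In day 3 replicate 3 the highest values were those of S100a9 (66.2 CPM, others up to 3.61), S100a8 (24.7, others up to 1.22), Csf3r (20.2, up to 4.53), Mki67 (74.2, up to 18.4), Aurkb (18.1, up to 4.65), Cdt1 (26.3, up to 11), Mx1 (8.87, up to 3.14), Irf9 (105, up to 63.8), Jun (134, up to 89.6) and Clcf1 (17.6, up to 13.1). The same library was lowest for E2f6 (45.2 CPM, others from 51.6) and the rod share of counts (3.33%, from 5.18%). Day 3 replicate 4 was highest for Crym (294 CPM, others up to 116), Aplnr (5.53, up to 2.32) and Cnp (32.7, up to 24.4), a myelin enzyme gene that overlaps Dnajc7 on the opposite strand.

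At day 7, replicate 4 was lowest for Ttr (646 CPM, others from 1370) and Lrat (28.7, from 56.3), and highest for Il6st (115, others up to 90.7) and Cx3cr1 (8.59, up to 6.64). Replicate 1 was lowest for Ccdc136 (86.8 CPM, others from 94.2), and highest for S100a9 (9.55, up to 0.838) and for the erythrocyte share of counts (0.0701%, up to 0.00749%). Replicate 2 was highest for Cxcl10 (3.61 CPM, the others all under 1) and lowest for Ccr1 (0.129, from 0.379).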

How the results depend on the processing

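The count of 0 called genes held with library totals, limma voom, no filter on low counts, only the 8 compared libraries, the replicate block and without control replicate 4. DESeq2 called 63 (28 higher, 35 lower). Lens and cornea covariates gave 2 (0 higher, 2 lower), and leaving out the 3 libraries that stood apart gave 9 (2 higher, 7 lower). Leaving out 1 library at a time gave 0 to 2 called genes, 0 to 1 in each direction: 2 without day 3 replicate 2 (Lcn2, H1foo) and 1 without day 3 replicate 3 (Tnip2). The cause was not tested. Genes at an unadjusted p under 0.05 split 448 lower and 624 higher with library totals, where the lower share was 41.8% beside 50.1%. The median of all genes stayed within -0.022 and 0.036.

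Same-numbered libraries of the 2 days, as deviations from their group means, correlated at -0.08, -0.23, -0.51 and 0.37. Differently numbered ones correlated at -0.49 to 0.6. No pairing by number showed, but this check cannot exclude one. With the replicate block 0 genes were called.

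Of 1630 values of named genes under alternatives, 1578 kept direction and call, 45 gained a call and 7 changed sign: without day 3 replicate 3, Aurkb (0.13), S100a9 (0.74) and Mki67 (0.27); without the 3 libraries, S100a9 (1.05) and Mki67 (0.21); with covariates, Cx3cr1 (0.04); without day 3 replicate 4, Cx3cr1 (0.1). Leaving out 1 library at a time, Aurkb ranged from -1.23 to 0.13, S100a9 from -5.14 to 0.74, Mki67 from -1.15 to 0.27 and Cx3cr1 from -0.22 to 0.1. The gliosis median ranged from -0.96 to -0.5, the interferon median from -1.14 to -0.4 and the pigment epithelium median from 0.24 to 0.53. Scarce genes such as Ccl2 and those of natural killer cells are limited by depth.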

Other observations

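Chaperones and folding enzymes of the endoplasmic reticulum, a group of 23 genes put together after the values were seen and so given without a test, had estimates mostly below 0. These proteins fold and check secreted and membrane proteins. At an unadjusted p under 0.05, 14 of 23 were lower and 0 higher, beside 3.07% and 3.06% of all genes. In 9 the day 7 libraries lay below those of day 3, beside 2.94%. Of 23 estimates 22 were below 0, and the median log2 fold change was -0.33. None passed edgeR's test, and DESeq2 called 4 lower, beside 0.188% of all genes. Since the group was formed from values already seen, these shares are no measure of a result. Of the 18 members not named below, 9 were lower at an unadjusted p under 0.05, 4 had groups apart, and DESeq2 called 0. Without the 3 libraries that stood apart 9 of 23 were lower at an unadjusted p under 0.05. Hspa5, the chaperone BiP, measured 373, 286, 425 and 371 CPM at day 3 and 265, 223, 225 and 188 CPM at day 7, beside a control mean of 310 ± 44.9 (SD, n = 4). The log2 fold change was -0.69 ± 0.17 (edgeR adjusted p = 0.429, DESeq2 adjusted p = 0.0371). Hsp90b1, its Hsp90 partner, stood at 253 to 297 CPM and then at 196 to 231 CPM (-0.38 ± 0.09, DESeq2 adjusted p = 0.00446), and was called below control at day 7, as was Hyou1 (-0.44 ± 0.11 between the days), a large Hsp70-like protein. Sdf2l1, a BiP cofactor, measured 13, 10.1, 16.4 and 13.1 CPM and then 8.54, 7.09, 5.45 and 5.03 CPM (-1.01 ± 0.21, DESeq2 adjusted p = 0.00446). Creld2, a disulfide isomerase, stood at -0.48 ± 0.13.

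These genes are known as targets of the unfolded protein response, whose factors bind a promoter element of CCAAT, 9 free bases and CCACG. Both strands were searched in the 250 bases before the RefSeq start. The element was in 9 of the 20 chaperone promoters found in the table (45%) and in 33 of 27025 promoters in all (0.122%). A high share follows from choosing known targets of this response, and it says nothing of the step between the days. A match is a description of letters and not of binding. Shown are 3 promoters, 5′ to 3′ on the gene's strand (GRCm38.p6), with the element on either strand in capitals: Hspa5 at chr2:34771840-34772089 (plus), Hsp90b1 at chr10:86705445-86705694 (minus) and Creld2 at chr15:88819396-88819645 (plus).
Hspa5: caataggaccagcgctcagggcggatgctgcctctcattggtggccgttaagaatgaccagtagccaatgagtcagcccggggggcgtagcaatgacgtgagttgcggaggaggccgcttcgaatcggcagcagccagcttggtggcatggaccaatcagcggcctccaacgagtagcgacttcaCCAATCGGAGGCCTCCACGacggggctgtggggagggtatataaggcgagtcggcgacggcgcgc
Hsp90b1: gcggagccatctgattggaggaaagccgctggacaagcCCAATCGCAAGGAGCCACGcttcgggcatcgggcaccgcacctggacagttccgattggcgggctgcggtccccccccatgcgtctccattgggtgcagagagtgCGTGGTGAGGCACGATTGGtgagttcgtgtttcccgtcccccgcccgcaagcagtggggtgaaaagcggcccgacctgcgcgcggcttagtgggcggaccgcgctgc
Creld2: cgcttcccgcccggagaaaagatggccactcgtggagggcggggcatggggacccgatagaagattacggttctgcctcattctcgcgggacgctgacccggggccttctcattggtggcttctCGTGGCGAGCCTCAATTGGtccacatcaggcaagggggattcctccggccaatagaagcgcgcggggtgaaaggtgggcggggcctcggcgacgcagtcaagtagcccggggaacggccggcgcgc
Hsp90b1 holds the element at 2 places. Annotation deposited with the counts starts Hspa5 at 34771970 and Hsp90b1, on the minus strand, at 86705509, both inside their windows.

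Genes of the axoneme and of motile cilia were grouped after some of them had been seen among the smallest p-values, and the group did not move as a whole. The 6 members named for their values (Ccdc63, Ccdc180, Wdr93, Casc1, Lrrc56 and Dnah9) were all higher at an unadjusted p under 0.05 with groups apart, which is how they were chosen, and DESeq2 called 5 of them. Of the other 22 tested members 1 was higher and 0 lower at that level, 14 estimates were above 0 and 8 below, and the median was 0.14. Foxj1, the master factor of motile cilia, stood at -0.14 ± 0.20 (adjusted p = 0.929). Dnah9, a heavy chain of the dynein motor, measured 13.1, 12, 10.8 and 11.1 CPM at day 3 and 14.6, 21.4, 25 and 22.8 CPM at day 7. It was called below the control mean of 27.9 ± 3.06 CPM (SD, n = 4) at day 3 (log2 -1.25, adjusted p = 0.00904) and not at day 7. The log2 fold change between the days was 0.84 ± 0.22 (adjusted p = 0.477). Lrrc56, which helps to load dynein arms, stood at 0.62 ± 0.15 (DESeq2 adjusted p = 0.0276).

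Of 6 tested genes of B and plasma cells 0 differed at an unadjusted p under 0.05, with 4 estimates above 0 and 2 below. Ighg2c, an antibody heavy chain, held 0.302 to 0.429 CPM at day 3 and 0.614 to 1.1 CPM at day 7 (1.05 ± 0.51, adjusted p = 0.822), and day 3 was called below the control mean of 1.1 ± 0.565 CPM (SD, n = 4; adjusted p = 0.0486). The antibody chains Igkc (-0.71 ± 0.76) and Ighm (-0.21 ± 0.27) pointed down.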
